A study of Mus musculus with 2 samples.

Results

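Classical monocytes were studied in the tumour region of mouse liver by droplet single-cell RNA sequencing. They were selected on measured values, the deposited unique molecular identifier (UMI) counts of each cell, by a gate: F13a1, Chil3 and Vcan together had at least 3 UMIs, Lyz2 at least 5, the C1q genes at most 2, Ace and Treml4 at most 1 and Cd209a at most 1, with no UMI of Retnlg, Cxcr2, the Cd3 genes or Cd79a. The gate took 3510 of 16305 cells that passed the quality limits, 3266 of 9470 in the inhibitor library and 244 of 6835 in the control library. Both libraries came from C57BL/6 mice that were labelled 17 months old and had been on the diet named CD-HFD for 15 months. The inhibitor mice received an inhibitor of the fatty acid carrier FABP5 from month 13 on, and the other library is labelled control; what those mice received is not stated in the material at hand. By the labels' account the hepatocellular carcinoma region was excised and digested with collagenase, and an Annexin V kit served to enrich live cells. Each group is 1 library, and the number of mice behind it is likewise not stated. Every difference below is therefore one between 2 libraries with no replicate check, and treatment, animals and preparation cannot be told apart.

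Classical monocytes leave the bone marrow through the chemokine receptor CCR2, circulate with high surface Ly6C and enter inflamed tissue, tumours included. There they can turn into macrophages, lose Ly6C and gain complement C1q, apolipoprotein E and lysosomal genes, or take up antigen-presenting features with MHC class II. Their own products include coagulation factor XIII subunit A (F13a1), the chitinase-like protein Chil3, the matrix proteoglycan versican (Vcan) and fibronectin (Fn1). FABP5 carries fatty acids within cells and is abundant in lipid-loaded macrophages.

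The inhibitor library held 68074929 UMIs in 10649 barcodes and the control library 53378693 UMIs in 9493 barcodes. The gated cells held 27113727 UMIs in the inhibitor library and 2001785 in the control library, with a median of 8276.5 and 8110.5 UMIs and 2400 and 2318 genes per cell. Their median share of mitochondrial UMIs was 3.78% in the inhibitor library and 4.03% in the control library, and the 90th percentile 5.41% and 10.4%. The libraries shared 29 barcodes, of which 8 were gated in either library and 1 in both. Levels are given as CPM, a gene's UMIs summed over the gated cells and scaled to a common total. The exact 95% intervals reflect the number of UMIs or cells counted and nothing else. A gene was counted where it averaged at least 25 CPM over the libraries, and called higher or lower past 1.5-fold.

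The marker genes that the gate did not use were detected in a larger share of gated inhibitor cells than of gated control cells. Ly6c2 was detected in 94.9% of gated inhibitor cells and 75.4% of gated control cells, Ccr2 in 99.1% and 91.8%, and Fn1 in 97.6% and 63.1%. At 2000 UMIs per cell these shares were 77.4% and 56.5% for Ly6c2, 85.8% and 81.9% for Ccr2, and 86.3% and 40.1% for Fn1. T cells, with a median of 4074 and 3806 UMIs and some of which express Ly6c2 and Ccr2 themselves, showed Ly6c2 in 39.5% and 21.4%, Ccr2 in 19.5% and 16.1% and Fn1 in 6.22% and 2.32% at that depth (unthinned 46.7% and 25.5%, 28.7% and 23.5%, and 8.94% and 4.59%). The gated share was above that of T cells for each marker in both libraries, by least for Ly6c2 in either library. Neither Ly6c2 nor Fn1 was detected in 25 inhibitor cells (0.765%, 0.496 to 1.13%) and 38 control cells (15.6%, 11.3 to 20.7%). F13a1, Chil3 and Vcan were all detected in 2424 inhibitor cells (74.2%, 72.7 to 75.7%) and 48 control cells (19.7%, 14.9 to 25.2%). Cells that passed with Chil3 as the only one of the 3 numbered 20 in the inhibitor library (0.612%) and 73 in the control library (29.9%). The last 2 counts concern genes of the gate and are a description. Since 15.6% of gated control cells had neither Ly6c2 nor Fn1, the name classical monocyte is used below for what the gate selected.

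**Figure D1:**
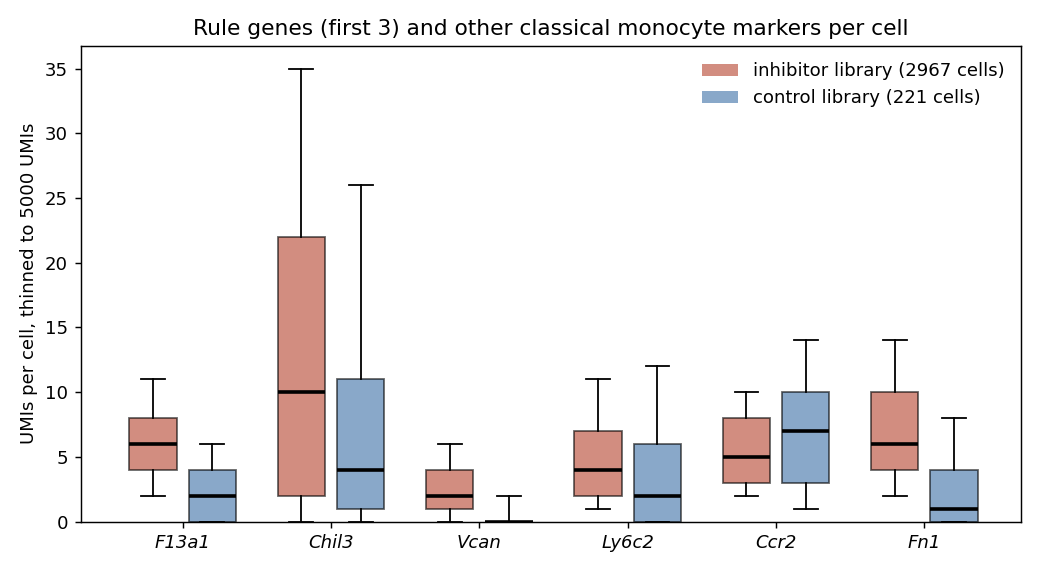
UMIs per gated cell for the 3 genes of the gate (F13a1, Chil3, Vcan) and 3 markers it did not use (Ly6c2, Ccr2, Fn1), each cell thinned to 5000 UMIs, in 2967 inhibitor and 221 control cells. Lines are medians, boxes span the quartiles and whiskers the 10th to 90th percentile; the Fn1 median was 6 UMIs in inhibitor cells and 1 in control cells, while that of Ccr2 was 5 and 7.

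The plot of markers per cell gives the spread cell by cell. At 5000 UMIs per cell the median inhibitor cell had 6 UMIs of F13a1, 10 of Chil3, 2 of Vcan, 4 of Ly6c2 and 6 of Fn1. The median control cell had 2 UMIs of F13a1, 4 of Chil3, 0 of Vcan, 2 of Ly6c2 and 1 of Fn1. Ccr2 was the exception, with a median of 5 UMIs in inhibitor cells and 7 in control cells. The lower median of Ly6c2 came with a wider spread, since the 90th percentile was 11 UMIs in inhibitor cells and 12 in control cells.

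Because the gated cells differed in these markers, the main results are also given in narrower sets, 2 in number and both chosen after the data were seen. Class II-low cells had under 20 UMIs of Cd74, H2-Aa, H2-Ab1 and H2-Eb1 per 10000 and numbered 2993 inhibitor and 131 control cells. Triple-positive cells had F13a1, Chil3 and Vcan all detected, numbered 2424 and 48, and held 20656902 and 419847 UMIs. In the triple-positive set the markers outside the gate lay closer together: Ly6c2 was at 1068 CPM in the inhibitor library and 1134 CPM in the control library (log2 fold -0.09, interval -0.22 to 0.05). There Ccr2 was at 1176 and 1379 CPM (log2 fold -0.23) and Fn1 at 1584 and 1260 CPM (log2 fold 0.33). Since the set was itself chosen by monocyte genes of the gate, the closer levels of these markers are a description.

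Gated cells made up 34.5% of kept cells in the inhibitor library (33.5 to 35.5%) and 3.57% in the control library (3.14 to 4.04%), a ratio of 9.66 (8.48 to 11.05). Triple-positive cells made up 25.6% of kept cells in the inhibitor library and 0.702% in the control library. With Ly6c2 and Ccr2 in the place of F13a1, Chil3 and Vcan, the gate took 3310 inhibitor cells (35.0%) and 361 control cells (5.28%). Nonclassical monocytes, gated on Ace and Treml4, were 5.65% and 3.03% of kept cells in the inhibitor and control libraries. Neutrophils, gated on Retnlg and Cxcr2, were 5.14% and 8.27%. Macrophages gated on C1q were 1.30% of inhibitor cells and 7.55% of control cells. These are shares of the cells recovered after digestion and enrichment, so a larger number of monocytes and a smaller number of other cells cannot be told apart.

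MHC class II set the gated cells of the 2 libraries apart. Class II molecules present peptides to CD4 T cells, and H2-Aa, H2-Ab1 and H2-Eb1 encode their chains, Cd74 the invariant chain and Ciita the transactivator of the whole set. H2-Aa stood at 149 CPM in inhibitor cells (144 to 153) and 2521 CPM in control cells (2452 to 2591), H2-Eb1 at 79.9 and 2014 CPM, and Cd74 at 771 and 7546 CPM. Cells with 200 to 500 class II UMIs per 10000 were 39 in the inhibitor library and 46 in the control library, and those over 500 were 4 and 23. Class II-high cells, at or over 20, were 8.36% of gated inhibitor cells (7.43 to 9.36%) and 46.3% of gated control cells (39.9 to 52.8%). Among the control cells that carried Chil3 as the only gate gene, 71.2% were class II-high, against 6.25% of the triple-positive control cells. Even among class II-high cells the 11 genes of the class II list summed to 14100 CPM in the inhibitor library and 35130 CPM in the control library.

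**Figure D2:**
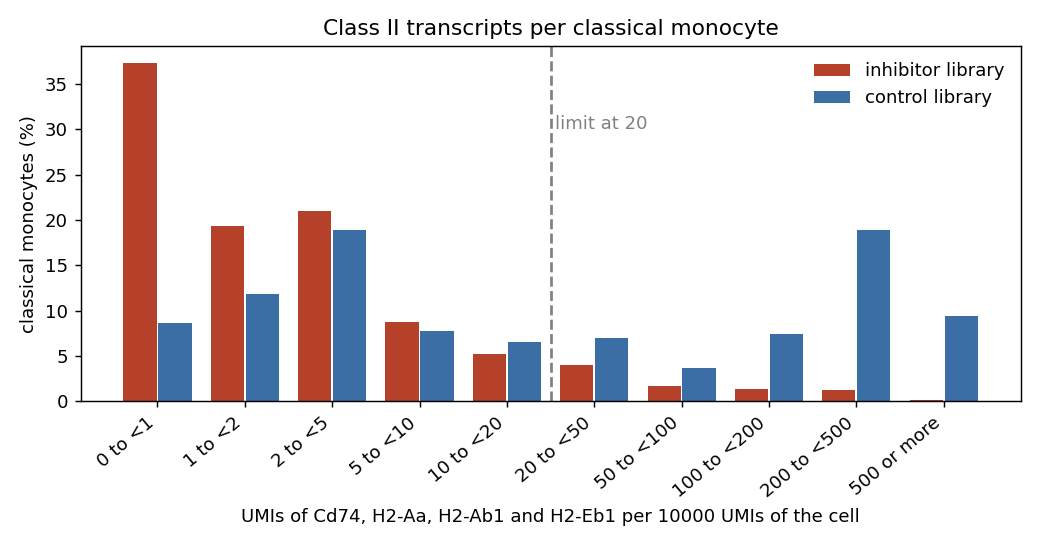
Share of gated cells (y axis, percent of the library's gated cells) by the summed UMIs of Cd74, H2-Aa, H2-Ab1 and H2-Eb1 per 10000 UMIs of the cell (x axis, bins of unequal width), with the limit of 20 between class II-low and class II-high cells dashed. Inhibitor cells crowd the lowest bin (37.3%), and control cells form a second group between 200 and 500 (18.9%).

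The promoters of 2 class II genes are shown because both genes were far lower in inhibitor cells and their promoters hold the motifs known to bind the class II regulatory complex. The X box core was searched as TNGCAAC and the Y box as CTGATTGG, on both strands, in RefSeq promoters of GRCm38.p6 (250 bases before to 50 after the gene's start). Of 32851 promoters of that length, 10.4% held the X box core, 4.10% the Y box and 0.426% both. Capitals mark the matches, the X box core first. H2-Aa lies on the minus strand at chr17:34287774-34288073 and H2-Eb1 on the plus strand at chr17:34305617-34305916. The matches are letters in these windows and say nothing of binding in these cells. H2-Ab1 was not printed.
H2-Aa: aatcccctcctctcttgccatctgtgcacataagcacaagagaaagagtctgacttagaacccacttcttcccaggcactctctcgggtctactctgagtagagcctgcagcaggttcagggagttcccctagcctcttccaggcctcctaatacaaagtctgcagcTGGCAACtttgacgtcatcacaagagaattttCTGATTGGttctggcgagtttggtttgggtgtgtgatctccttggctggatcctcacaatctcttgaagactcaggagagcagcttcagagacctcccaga
H2-Eb1: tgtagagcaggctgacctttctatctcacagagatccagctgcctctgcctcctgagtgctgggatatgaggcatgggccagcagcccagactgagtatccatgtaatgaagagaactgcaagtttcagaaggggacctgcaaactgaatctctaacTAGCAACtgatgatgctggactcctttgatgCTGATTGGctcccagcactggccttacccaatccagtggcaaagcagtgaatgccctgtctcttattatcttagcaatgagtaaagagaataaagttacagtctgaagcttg

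All 8 class II genes counted, of 11 on the list, were at least 1.5-fold lower in inhibitor cells (median log2 fold -3.31). Over all 4310 genes counted, 8.31% were that much lower and 10.7% that much higher (461 genes higher, 358 lower, median log2 fold 0.08); scaled to the median gene ratio, these were 353 higher and 424 lower. In triple-positive cells the class II difference was small by comparison. H2-Aa was at 79.5 CPM in the inhibitor library and 126 CPM in the control library (log2 fold -0.67, -1.06 to -0.24), and H2-Ab1 at 83.2 and 112 CPM (-0.43, -0.85 to 0.02). Cd74 was at 490 and 653 CPM there. Of 7 class II genes counted in that set, H2-Aa and H2-Eb1 passed 1.5-fold, both lower, where 7.75% of 4269 genes were lower by that much and 11.2% higher. At 2000 UMIs per cell, which left out 65 inhibitor and 7 control cells, H2-Aa was detected in 7.06% of gated inhibitor cells and 44.7% of gated control cells (unthinned 13.0% and 53.7%). T cells, which should lack it and had medians of 4074 and 3806 UMIs, showed it in 5.02% and 7.48%. The inhibitor share thus lies near that of T cells, whose H2-Aa may be free RNA.

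The genes highest in inhibitor cells relative to control cells included regulators, receptors and cytoskeletal genes. Of these genes 14 of 15 were past 1.5-fold in triple-positive cells too, which are a part of the cells by which they were picked. Noct, which encodes the clock-controlled phosphatase nocturnin, was at 155 CPM in inhibitor cells (151 to 160) and 23.5 CPM in control cells (17.3 to 31.2), a 6.61-fold difference. In triple-positive cells Noct was at 162 and 31.0 CPM (log2 fold 2.39, 1.61 to 3.30). It was detected in 25.1% of inhibitor cells and 4.64% of control cells at 2000 UMIs (62.0% and 16.8% unthinned), and in 2.69% and 1.56% of T cells. Plaur, the urokinase receptor that focuses plasmin on the cell surface, was at 349 CPM in inhibitor cells (342 to 356) and 100.4 CPM in control cells (87.0 to 115). Its triple-positive levels were 347 and 92.9 CPM (log2 fold 1.90, 1.45 to 2.39). Plaur was detected in 47.3% and 14.3% of cells at 2000 UMIs (85.9% and 41.8% unthinned), against 3.78% and 0.888% of T cells.

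Plec, which links intermediate filaments to adhesion sites, was at 250.2 and 52.5 CPM, and Lmna, the nuclear lamin A/C, at 74.4 and 14.0 CPM. Their triple-positive log2 folds were 1.49 (1.03 to 1.98) and 1.66 (0.78 to 2.72). Nab2, a co-repressor of EGR transcription factors, was at 47.7 CPM in inhibitor cells and 8.49 CPM in control cells. No Nab2 UMI was found in the 48 triple-positive control cells, against 47.9 CPM in those of the inhibitor library, which is at least 6.71-fold higher with 3 UMIs taken as the limit of detection in the control set. Adora2b, the low-affinity adenosine receptor, was at 60.9 and 12.5 CPM, and Sgms2, a sphingomyelin synthase, at 43.3 and 7.99 CPM. Mmp8, a collagenase also made by neutrophils, was at 327 and 88.4 CPM but at 366 and 248 CPM in triple-positive cells (log2 fold 0.56), below 1.5-fold. Further genes named by the rule were Ocstamp, Phlda1, Oaf, Serpinb8, Stk40 and Fam129b, with log2 folds of 1.91 to 3.35.

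**Figure D3:**
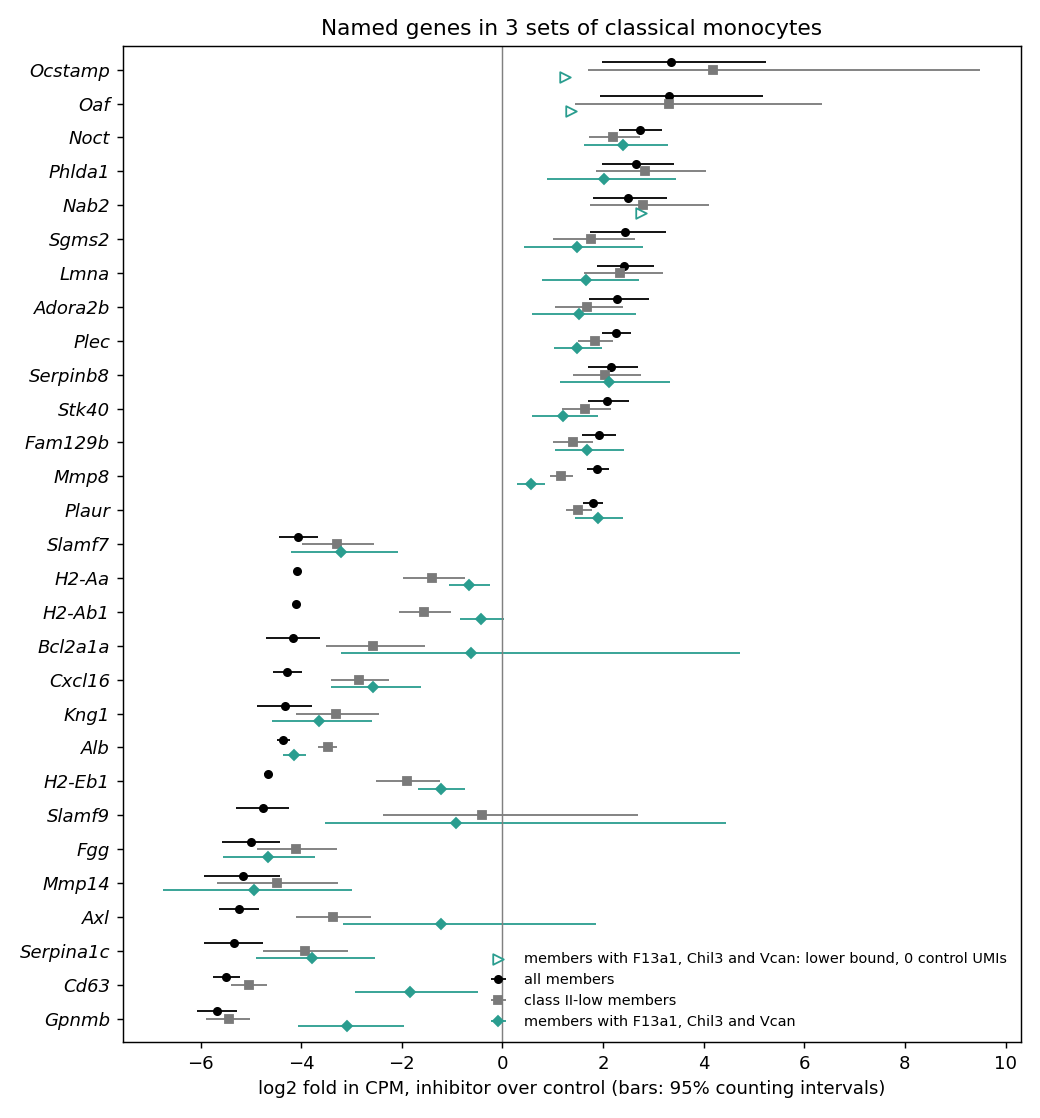
Log2 fold in CPM, inhibitor over control (x axis), of 14 of the 15 genes highest and the 15 lowest by the bound of their interval nearest to 1 (rows), in all gated cells (circles), class II-low cells (squares) and triple-positive cells (diamonds). Bars are 95% counting intervals and open triangles are lower bounds where the control set had 0 UMIs; Noct lies at 2.39 and H2-Aa at -0.67 in triple-positive cells.

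All 15 higher genes were past 1.5-fold in class II-low cells, where 7.96% of all genes counted were that much higher and 6.75% lower, and Mmp8 was the exception in triple-positive cells. Both sets are parts of the cells by which the genes were picked, so these counts are a description. Most of the 15 genes were also higher outside the gate. All 15 were at least 1.5-fold higher in nonclassical monocytes, against 10.0% of genes counted there, and 13 of 15 in C1q macrophages, against 19.9%. In C1q macrophages 14 of 15 kept the direction, and Sgms2 and Serpinb8 were not past 1.5-fold. Noct was at 155 CPM in nonclassical monocytes of the inhibitor library and 30.5 CPM in those of the control library, at 91.6 and 15.1 CPM in C1q macrophages and at 64.2 and 11.1 CPM over all other kept cells. Plaur was at 373 and 145 CPM in nonclassical monocytes and 147 and 47.6 CPM in C1q macrophages. The higher levels were thus not particular to classical monocytes. F13a1 was also detected in 5.49% of inhibitor T cells and 0.296% of control T cells at 2000 UMIs (8.32% and 0.672% unthinned). Whether these UMIs were free monocyte RNA or came from doublets of a monocyte and a T cell was not tested. The part of such transcripts in the levels of other cells was not tested either.

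The genes lowest in inhibitor cells relative to control cells were macrophage, class II and hepatocyte genes. Gpnmb, a glycoprotein of lipid-loaded macrophages, was at 2.62 CPM in inhibitor cells and 133 CPM in control cells, and the lysosomal tetraspanin Cd63 at 5.42 and 243 CPM. In triple-positive cells Gpnmb was at 2.81 and 23.8 CPM (log2 fold -3.08, -4.07 to -1.95) and Cd63 at 4.70 and 16.7 CPM (-1.83, -2.93 to -0.48). Axl, a receptor for dying cells, was at 2.73 and 102 CPM, and at 2.03 and 4.76 CPM in triple-positive cells, where the control value is 2 UMIs. Cxcl16, a membrane-bound chemokine that also binds oxidised lipoprotein, was at 6.12 and 118 CPM, and at 5.23 and 31.0 CPM in triple-positive cells (-2.57, -3.40 to -1.61). Slamf7 was at 3.91 and 64.9 CPM and at 2.57 and 23.8 CPM. Mmp14, a membrane-anchored matrix protease, was at 0.811 and 29.0 CPM. Slamf9 and Bcl2a1a had 1 control UMI each in triple-positive cells, and Bcl2a1a has near-identical copies between which reads may have been split.

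The remaining 4 of the 15 lower genes, Alb, Fgg, Kng1 and Serpina1c, encode plasma proteins of hepatocytes. Alb was at 27.6 CPM in inhibitor cells and 564 CPM in control cells and was detected in 2.78% and 48.5% of them at 2000 UMIs (9.31% and 79.5% unthinned). T cells had Alb in 4.51% and 56.5%, so these shares are at the level of free RNA and are not read as expression. The 24 hepatocyte genes on the list summed to 279 CPM in inhibitor cells and 1686 CPM in control cells, and all were detected in both. Per cell the sum ran from 0 to 516 UMIs per 10000 in the inhibitor library and from 0 to 301 in the control library, with medians of 1.14 and 8.20. With an estimate of free RNA subtracted, 477 genes were higher and 363 lower.

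Fabp5, the drug's target, was at 74.9 CPM in inhibitor cells (71.6 to 78.2) and 578 CPM in control cells (546 to 613), a log2 fold of -2.95, yet was detected in 31.9% and 29.5% of cells. At 2000 UMIs the shares were 11.3% and 18.6%, against 3.93% and 5.66% in T cells. The control sum was set by 7 cells with 50 or more Fabp5 UMIs, 2.87% of the gated control cells, which held 74.4% of it. Those cells had median UMIs of 0 for F13a1, Vcan, Ly6c2, Ccr2 and Fn1, 5 for Chil3, 13 for Gpnmb and 158 for Apoe. No inhibitor cell reached 50 Fabp5 UMIs. In triple-positive cells the direction was reversed, with 72.8 CPM in the inhibitor library and 42.9 CPM in the control library (log2 fold 0.76, 0.10 to 1.52, on 18 control UMIs). Fabp4, the fatty acid carrier of adipocytes and macrophages, was at 2.73 and 54.0 CPM, and 5 control cells held 86.1% of its control sum. The drug acts on the protein, so these transcript levels do not check the labels.

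Genes of monocyte-to-macrophage differentiation were lower in inhibitor cells, 9 of 15 counted by at least 1.5-fold and 1 higher (median log2 fold -1.76). Of all genes, 8.31% were that much lower and 10.7% higher. Apoe, the apolipoprotein that macrophages secrete, was at 1088 CPM in inhibitor cells and 8272 CPM in control cells, and Trem2, a lipid-sensing receptor, at 56.9 and 193 CPM. The difference over the list narrowed in class II-low cells, with 7 of 14 lower and 2 higher (median -0.78), against 6.75% and 7.96% of all genes. In triple-positive cells it came to 2 lower and 4 higher of 12 (median -0.06), against 7.75% and 11.2%. The 2 lower genes were Apoe, at 1039.7 and 1772 CPM (log2 fold -0.77, -0.87 to -0.66), and the tetraspanin Cd9, at 15.0 and 50.02 CPM. At 2000 UMIs Apoe was detected in 53.8% of gated inhibitor cells and 87.3% of gated control cells (unthinned 73.2% and 96.7%). T cells showed it in 11.7% and 40.8% (unthinned 20.3% and 60%). The part of free RNA in the Apoe levels of gated cells was not tested. The higher genes included the secreted phosphoprotein Spp1, at 75.2 and 23.8 CPM (log2 fold 1.66, 0.78 to 2.72), Lpl and the cathepsin Ctsl.

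Of the fatty acid handling genes, 1 of 11 was higher and 4 were lower over all gated cells, against 10.7% and 8.31% of all genes. In triple-positive cells 2 of 10 were higher and 4 lower, against 11.2% and 7.75%. The higher ones there were Fabp5 and Lpl, and the lower ones were Lipa, the triglyceride lipase gene Pnpla2, at 43.3 CPM in the inhibitor library and 78.6 CPM in the control library, the acyl-CoA synthetase gene Acsl1, at 22.6 and 38.1 CPM, and G0s2, an inhibitor of that lipase, at 13.4 and 50.02 CPM. Abcg1, which exports cholesterol to lipoproteins, was at 29.2 CPM in inhibitor cells and 123 CPM in control cells, and at 29.3 and 88.1 CPM in triple-positive cells (log2 fold -1.59, -2.07 to -1.07). Lipa, the lysosomal acid lipase, was at 50.9 and 167 CPM and at 48.0 and 107 CPM in triple-positive cells. On the cholesterol synthesis list, 2 of 21 genes reached 25 CPM and both were higher, among them Msmo1, a sterol oxidase, at 46.0 CPM in inhibitor cells and 14.5 CPM in control cells. In triple-positive cells 2 of 3 were higher and Mvd, an enzyme of the mevalonate pathway, was lower, at 17.0 and 35.7 CPM. Lpl, the lipoprotein lipase, was at 161 and 158 CPM over all gated cells but at 186 and 61.9 CPM in triple-positive cells (log2 fold 1.59, 1.03 to 2.20). Genes of fatty acid oxidation and PPAR signalling had a median log2 fold of 0.13 in all cells and -0.003 in triple-positive cells, with 0 higher and 1 lower of 12. All 20 nuclear genes of the respiratory chain stayed within 1.5-fold in all 3 sets.

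Lysosomal genes were lower in inhibitor cells, 7 of 16 by at least 1.5-fold and none higher (median log2 fold -0.48), against 8.31% and 10.7% of all genes. The asparaginyl protease Lgmn was at 109.7 CPM in inhibitor cells and 534 CPM in control cells, and cathepsin D (Ctsd) at 263 and 818 CPM. In triple-positive cells 2 of 16 were lower and 2 higher (median -0.24), near the 7.75% and 11.2% of all genes, with Lgmn at 102 and 188 CPM. The adhesion receptor subunit Itgb5, which helps in the uptake of dying cells, was at 13.7 and 134 CPM, and at 13.5 and 57.2 CPM in triple-positive cells (log2 fold -2.09, -2.69 to -1.42).

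Interferon-stimulated genes were lower in inhibitor cells over the whole gate and close between libraries in triple-positive cells. Of 21 genes of the type I response, 14 were at least 1.5-fold lower and none higher (median log2 fold -0.80), against 8.31% and 10.7% of all genes. The antiviral gene Ifit3 was at 18.7 CPM in inhibitor cells and 155 CPM in control cells, and Isg15, a ubiquitin-like modifier, at 143 and 278 CPM. The control levels lay in few cells, 5 of which held 52.6% of the Ifit3 UMIs and 42.8% of the Isg15 UMIs. In triple-positive cells 2 of 16 were lower and 1 higher (median -0.11), near the 7.75% and 11.2% of all genes. The higher one was Isg15, at 140.2 and 88.1 CPM (log2 fold 0.67, 0.20 to 1.18), while Ifit3 was at 16.8 and 23.8 CPM (-0.50, -1.40 to 0.57). Ifit3 has a near-identical neighbour, so its counts are uncertain.

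The interferon gamma list had 9 of 10 genes lower (median log2 fold -1.52), against 8.31% of all genes. In triple-positive cells 3 of 7 were lower and none higher (median -0.44), against 7.75% and 11.2%. The lower ones included the guanylate-binding protein genes Gbp2, at 14.5 CPM in the inhibitor library and 38.1 CPM in the control library, and Gbp3, at 19.6 and 47.6 CPM. The chemokine Cxcl10 was at 84.2 and 333 CPM in all gated cells, with 47.9% of inhibitor UMIs and 68.0% of control UMIs in 5 cells each. Of 12 MHC class I presentation genes, 6 were lower and none higher over all gated cells (median -0.57), where 8.31% and 10.7% of all genes were. In triple-positive cells none of 11 passed in either direction (median -0.28), where 7.75% of all genes were lower and 11.2% higher.

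Promoters of Ifit3 and Isg15 are shown because these genes name the type I response. The interferon-stimulated response element was searched as GAAA, 2 bases of any kind and GAAA again, on both strands, and 3.44% of the 32851 promoters held it. Capitals mark the matches, which in Isg15 overlap each other. Ifit3 is on the plus strand at chr19:34583279-34583578 and its 2 matches read on the minus strand. Isg15 is on the minus strand at chr4:156200769-156201068 and has 3 matches. Of the 6 genes looked up for both sets of promoters, 5 were in the RefSeq table.
Ifit3: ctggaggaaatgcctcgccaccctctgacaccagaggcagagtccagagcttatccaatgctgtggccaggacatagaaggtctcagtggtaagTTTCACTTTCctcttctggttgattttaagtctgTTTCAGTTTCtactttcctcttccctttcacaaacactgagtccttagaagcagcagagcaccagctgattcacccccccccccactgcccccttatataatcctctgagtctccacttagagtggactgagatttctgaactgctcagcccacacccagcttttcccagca
Isg15: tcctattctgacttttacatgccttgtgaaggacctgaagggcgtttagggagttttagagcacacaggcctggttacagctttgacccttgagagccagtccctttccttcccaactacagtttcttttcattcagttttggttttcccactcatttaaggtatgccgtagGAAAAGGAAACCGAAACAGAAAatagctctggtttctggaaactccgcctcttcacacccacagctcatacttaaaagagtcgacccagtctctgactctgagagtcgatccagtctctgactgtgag

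Coagulation and matrix genes, which classical monocytes bring into wounds and tumours, were higher in inhibitor cells. Of 11 counted, 8 were at least 1.5-fold higher and 1 lower (median log2 fold 1.14), against 10.7% and 8.31% of all genes. The 8 and the median include F13a1 and Vcan, which are genes of the gate, so these counts are a description. F13a1 was at 1241 CPM in inhibitor cells and 491 CPM in control cells, Vcan at 549 and 94.9 CPM, and Chil3 at 2711 and 1644 CPM. Fn1 was at 1474 CPM (1460 to 1489) and 561 CPM (529 to 595). Thrombospondin 1 (Thbs1), an activator of TGF-beta, was at 319 and 151 CPM, and the plasminogen-binding pair Anxa2 and S100a10 at 1400.1 and 634 CPM and at 1493 and 636 CPM. In class II-low cells the same number, 8 of 12, were higher, F13a1 and Vcan again among them, against 7.96% of all genes. In triple-positive cells 3 of 11 were higher and none lower (median 0.35), against 11.2% and 7.75% of all genes. The 3 were Vcan, a gene of the gate, Plaur and S100a10, and Thbs1 was at 368 and 343 CPM (log2 fold 0.10, -0.14 to 0.35).

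Adhesion and migration genes were also higher, 9 of 17 with 1 lower (median log2 fold 0.59), against 10.7% and 8.31% of all genes. At 5000 UMIs the median cell held 59 UMIs of the list in the inhibitor library and 31 in the control library. In triple-positive cells 4 of 17 were higher and 2 lower (median 0.26), against 11.2% and 7.75% of all genes. The 4 were Vim, the intermediate filament vimentin, at 5234 CPM in the inhibitor library and 3039 CPM in the control library; Cd44, the hyaluronan receptor, at 708 and 353 CPM; Ahnak, a large scaffold protein, at 974 and 557 CPM; and Itga5, the fibronectin receptor subunit, at 64.3 and 23.8 CPM.

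Chemokines and their receptors moved in both directions. Ccl2, the ligand of CCR2, was at 392 CPM in inhibitor cells and 136 CPM in control cells, and at 401 and 141 CPM in triple-positive cells (log2 fold 1.51, 1.15 to 1.91). The inflammatory chemokine receptor Ccr1 was higher in each set, with a triple-positive log2 fold of 1.12 (0.76 to 1.51). Cxcr4, the bone marrow retention receptor, was lower, at 60.0 and 126 CPM in triple-positive cells (-1.07, -1.47 to -0.65). Ccl4 was at 229 CPM in inhibitor cells and 372 CPM in control cells, and at 230.4 and 381 CPM in triple-positive cells. Over the 10 chemokines counted, 2 were higher and 5 lower, and over 11 receptors 4 were higher and 5 lower. Of all genes, 10.7% were higher and 8.31% lower.

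Of the inflammatory genes of the IL-1, TNF and NF-kB list, 7 of 20 were higher and 1 lower over all gated cells (median log2 fold 0.09), against 10.7% and 8.31% of all genes. In triple-positive cells Clec4e and Nfkbid were higher and Ccl4 and Sod2, the mitochondrial superoxide dismutase, lower, 2 each of 20, against 11.2% and 7.75%. Il1b, the gene of interleukin 1 beta, was at 540.1 CPM in inhibitor cells and 566 CPM in control cells, detected in 53.7% and 50.8% of them. Clec4e, a receptor for mycobacterial and damage-derived glycolipids, was at 288 and 113 CPM and at 305 and 181 CPM in triple-positive cells (log2 fold 0.75, 0.43 to 1.10). Genes of the unfolded protein response were higher in 2 of 12 in all cells, where 10.7% of all genes were higher, and in 3 of 12 in triple-positive cells, where 11.2% were, none being lower. Among them the chaperone Hspa5 was at 598 and 252 CPM in triple-positive cells (1.24, 0.97 to 1.53), and Manf, a secreted stress protein, at 214 and 105 CPM. Of 20 circadian genes 5 were counted, of which Noct and Nfil3 were higher and none lower, against 10.7% and 8.31% of all genes. In triple-positive cells Noct was the only one of 5 past 1.5-fold, against 11.2% of all genes higher and 7.75% lower. Noct was picked by its fold over these same cells, so these counts are a description. Glucocorticoid-induced genes had 2 higher and 2 lower of 9 over all gated cells, against 10.7% and 8.31% of all genes. In triple-positive cells 4 of 8 were lower and none higher, against 7.75% and 11.2%, with Fkbp5 at 38.1 and 73.8 CPM and Tsc22d3 at 148 and 231 CPM.

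Heat shock and chaperone genes were 2 of 9 higher over all gated cells and 4 of 9 in triple-positive cells, none lower, against 10.7% and 11.2% of all genes, with the chaperone Hsp90aa1 at 286 CPM in the inhibitor library and 121 CPM in the control library there (log2 fold 1.23, 0.84 to 1.66). Transcripts of mitochondrial DNA were lower in 3 of 12 over all gated cells, against 8.31% of all genes. In triple-positive cells 6 of 12 were lower (median -0.58), against 7.75%, with mt-Nd4 at 2293 and 3778 CPM. Cells were kept by their share of these same transcripts, so the mitochondrial levels are a description. Klf2, a transcription factor of quiescent cells, was at 795 and 683 CPM over all gated cells, but at 779 and 1374 CPM in triple-positive cells (-0.82, -0.94 to -0.70). In triple-positive cells 3 of 17 pattern recognition genes were higher and none lower, 1 of 11 scavenger receptor genes was higher and 1 lower, and 1 of 7 Fc receptor genes was lower, where 11.2% of all genes were higher and 7.75% lower. The C-type lectin Clec4d, partner of Clec4e, was at 141 and 47.6 CPM in triple-positive cells (1.56, 0.93 to 2.28), and the scavenger receptor Msr1 at 207 and 83.4 CPM (1.31, 0.83 to 1.84). Fcgr2b, the inhibitory Fc receptor, was the lower Fc receptor gene, at 109.6 and 226 CPM (-1.05, -1.34 to -0.73). Csf1r, the receptor for macrophage colony-stimulating factor, was at 312 and 488 CPM over all gated cells and at 308 and 367 CPM in triple-positive cells.

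**Figure D4:**
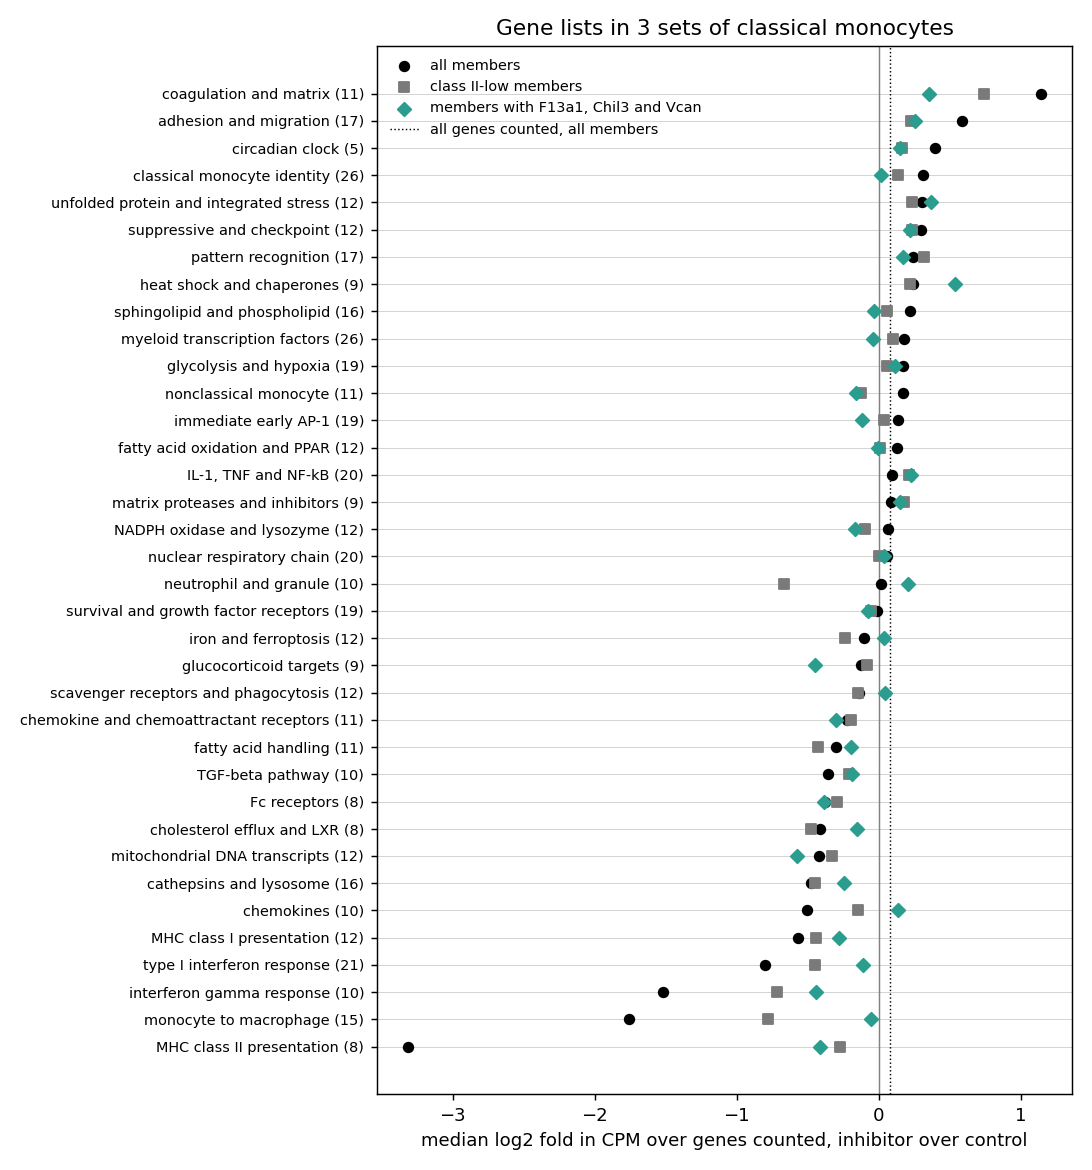
Median log2 fold in CPM, inhibitor over control (x axis), over the genes counted in each list (rows, number counted over all gated cells in parentheses), in all gated cells (circles), class II-low cells (squares) and triple-positive cells (diamonds), with the median over all genes dotted at 0.08. The list of MHC class II presentation lies at -3.31 and that of monocyte-to-macrophage genes at -1.76 over all gated cells, and at -0.41 and -0.06 in triple-positive cells.

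In the plot of list medians the sets differ most for the lists at either end. The 26 genes of classical monocyte identity had 8 higher and 2 lower over all gated cells (median log2 fold 0.31), 2 higher and 1 lower in class II-low cells (0.14), and none higher and 1 lower in triple-positive cells (0.01). Of all genes counted, 10.7% were higher and 8.31% lower over all gated cells. The shares were 7.96% and 6.75% in class II-low cells, and 11.2% and 7.75% in triple-positive cells. The identity list includes Lyz2, a gene of the gate. Triple-positive cells were themselves chosen by monocyte genes of the gate, so the narrowing is a description. Of the lists plotted, 6 had a median past 1.5-fold over all gated cells, the adhesion list by the least. The coagulation list, which holds the gate's F13a1 and Vcan, was among them. Of the 6, 3 were past 1.5-fold in class II-low cells and none in triple-positive cells. Among the named genes, 14 of the 15 higher and 14 of the 15 lower were past 1.5-fold in triple-positive cells. These genes were picked by their folds over all gated cells, of which the triple-positive cells are a part. Their counts are therefore a description and are not comparable with the list medians. The lower genes include Alb, Fgg, Kng1 and Serpina1c of hepatocytes, and some rest on few control UMIs.

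Of the 3 leading components of variation among gated inhibitor cells, fitted to 2967 cells thinned to 5000 UMIs, each carried little of the variance (2.46%, 2.19% and 2.14%). The first set Chil3, Hmgb2, Klf2, Fn1 and Ly6c2 against Cd74, Pid1 and Hspa5. Chil3 averaged 7.76 UMIs in its bottom 25% of cells and 21.5 in its top 25%, and Cd74 9.51 and 0.724 UMIs. The second set Chil3, Dusp1, Il1b, Thbs1 and Cxcl2 against Lgals1, Ly6c2, Hspa1a and Crip1, with Il1b at 1.05 UMIs in the bottom 25% and 5.65 in the top 25%. The third set Cd74, Apoe, Il1b, Plac8 and H2-Ab1 against Chil3, Fn1, Vcan and F13a1, with Apoe at 2.35 UMIs in the bottom 25% and 10.3 in the top 25%. These are the genes by which the cells were arranged and support no test.

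**Figure D5:**
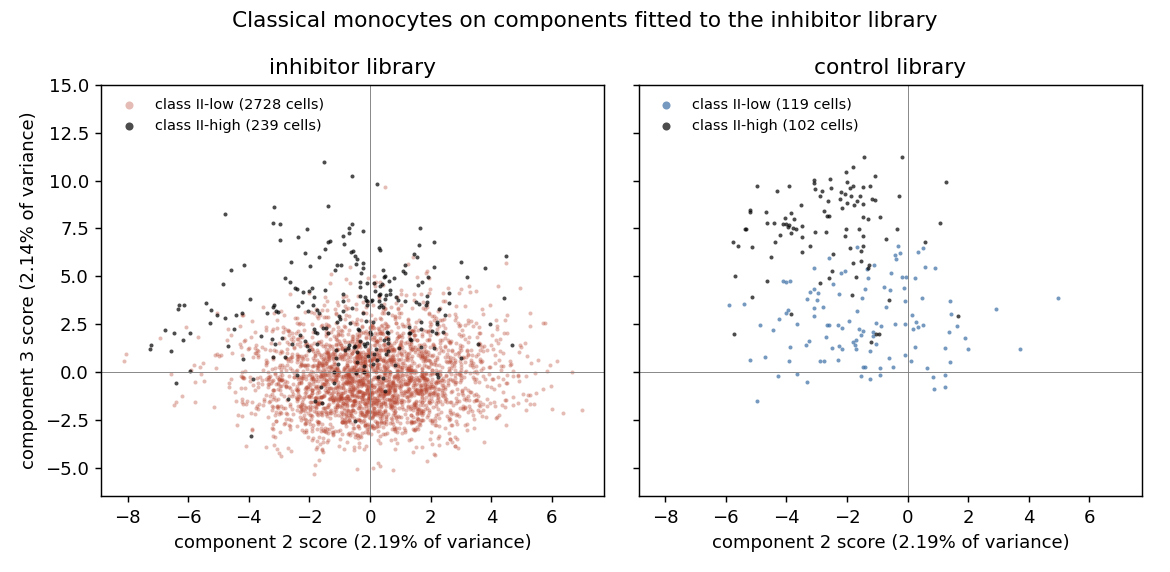
Scores of gated cells on components 2 (x axis) and 3 (y axis), arbitrary units, fitted to the inhibitor library (left) with the control cells projected (right); points are single cells and black points are class II-high. Of the control cells, 87.8% lie in the range of the top 25% of inhibitor cells on component 3.

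Projected on these components, gated control cells lay toward one side of the plot of component scores. On the third, 87.8% of 221 control cells lay in the range of the top 25% of inhibitor cells, on the side of Cd74 and Apoe. Among the leading genes of that component are the gate's own Chil3, Vcan and F13a1, and Cd74 defines the class II-low set, so the position is a description. On the second, 4.52% lay in the range of the top 25% and 64.7% in that of the bottom 25%, opposite to Chil3. Lgals1 and Ly6c2 led that bottom side, yet the Ly6c2 median at 5000 UMIs was 4 in inhibitor cells and 2 in control cells. On the first, 22.2% lay in the top range and 38.9% in the bottom range. The gate's Chil3 led the top side of the first and second components, so these positions are a description too.

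The lower genes differed between the cell types nearest to classical monocytes. H2-Aa was at 1066 CPM in nonclassical monocytes of the inhibitor library and 3188 CPM in those of the control library (log2 fold -1.58), and at 6290 and 9836 CPM in C1q macrophages (-0.65). Of the 15 lower genes, 14 were at least 1.5-fold lower in nonclassical monocytes, Cd63 being the exception, against 5.17% of all genes counted there, and 11 in C1q macrophages, against 7.61%. Both counts include the hepatocyte genes Alb, Fgg, Kng1 and Serpina1c, and Alb was read above as free RNA. The part of free RNA in these counts was not tested. Axl and Mmp14 were higher in inhibitor C1q macrophages than in control ones, at 393 and 323 CPM and at 101 and 66.4 CPM. Fabp5 was at 87.0 and 211 CPM in nonclassical monocytes and 568 and 651 CPM in C1q macrophages. Apoe was at 17402 and 26457 CPM in C1q macrophages, above its level in gated cells of either library.

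Cells at the edges of the gate showed where it cuts. With 3 UMIs of F13a1, Chil3 and Vcan, just inside, stood 37 inhibitor and 26 control cells, and with 2 UMIs, just outside, 34 and 19. Just inside, Cd74 was at 5848 CPM in the inhibitor library and 10981 CPM in the control library and Ly6c2 at 883 and 676 CPM. Just outside, Cd74 was at 13452 and 18606 CPM and Ly6c2 at 604 and 336 CPM. At the limit for Ace and Treml4, 437 inhibitor and 64 control cells had 1 UMI and were kept, and 176 and 35 had 2 and were not.

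Markers of several other cell types, though not of all, differed in level in the gated cells. The 12 conventional dendritic cell genes summed to 90.2 CPM in inhibitor cells and 88.9 CPM in control cells. The gate itself limited the dendritic cell marker Cd209a. The 8 Kupffer cell genes summed to 132.5 and 108.4 CPM. The 12 T cell genes summed to 12.9 CPM in inhibitor cells and 21.0 CPM in control cells, with 3 and 4 of them at 0, the Cd3 genes by the gate, and per-cell sums from 0 to 20.5 and from 0 to 11.4 UMIs per 10000. The 8 endothelial genes summed to 2.43 and 5.50 CPM, with 2 and 4 at 0, and per-cell sums up to 3.45 and 1.63. Neutrophil and granule genes summed to 2357 and 3869 CPM, but 1 control cell, with 1735 UMIs of S100a8 and 1605 of S100a9 and none of F13a1, Vcan, Ccr2 or Csf1r, held 98.8% of the control sum of these 2 genes. The 10 B cell genes summed to 139.9 CPM in inhibitor cells and 281 CPM in control cells, with 2 and 4 at 0, Cd79a by the gate, and with a UMI in 60.5% and 82.0% of cells. Both B cell genes counted, Ighm and Igkc, were lower, at 107 and 207 CPM and at 24.1 and 59.9 CPM. The 10 NK cell genes summed to 71.7 and 215 CPM, with 0 and 2 at 0 and per-cell sums up to 159 and 85.7 UMIs per 10000. In triple-positive cells S100a8 was at 103 and 14.3 CPM. The 5 erythroid genes summed to 2315 CPM in inhibitor cells and 828 CPM in control cells, with a UMI in 75.2% and 86.5% of cells and per-cell sums up to 4032 and 1465 UMIs per 10000. Haemoglobin genes were at or over 100 UMIs in 21 inhibitor cells and 1 control cell, which held 92.5% and 67.4% of the haemoglobin UMIs of their libraries. The part of the B cell, NK cell and erythroid transcripts in other results was not tested. Without the S100a8 and S100a9 cell, 463 genes were higher and 357 lower.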

How the data were processed

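The authors deposited whole-number UMI counts per gene and barcode, not normalized, for both libraries; per the file headers they were written by Cell Ranger 5.0.1. The submitters' processing notes name Cell Ranger, R 3.0, Seurat 3 and the build mm9. Barcodes with at least 300 genes and at most 25% mitochondrial UMIs were kept. The gate, the gene lists and the comparisons were chosen with earlier results of these data known. UMIs were summed over gated cells and expressed as CPM, with exact Poisson intervals and conditional binomial intervals for ratios; shares have exact Clopper-Pearson intervals. Folds against 0 UMIs used 3 UMIs in the set of cells as the lowest detectable sum. Genes averaging at least 25 CPM over the libraries were counted, and 1.5-fold was the limit. The named genes are the 15 highest and 15 lowest by the interval bound nearest to 1, among genes with at least 50 UMIs, detected in at least 10% of cells and with at least 25% of the CPM of other kept cells where higher; genes of the gate, mitochondrial, ribosomal protein, haemoglobin, antigen receptor, sex-linked and unnamed genes were left out, and list genes, markers, Fabp4 and Fabp5 were added. Doublets were limited by the gate alone, with Scrublet as an alternative. No columns of other samples were present. With 1 library per group no test was run. Some genes, 1 of the named ones included, are not reported here. Python 3.11.15, numpy 2.4.6, scipy 1.17.1, pandas 2.3.3 and scanpy 1.11.5 were used, and scripts were tested on simulated data.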

Additional observations from a re-analysis of the deposited data

How the results depend on the processing

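The counts of genes past the fold depended on the limits. With a mean of at least 10 CPM they were 723 higher and 727 lower, with at least 100 CPM 143 and 92, and at 2-fold 145 and 160, against 461 and 358. Scaled to the median gene ratio, 353 were higher and 424 lower, so that 45.4% of calls were higher, against 56.3%. The log2 ratio of the share of gated cells was 3.27; it was 3.67 with at least 6 UMIs of F13a1, Chil3 and Vcan, 2.73 with Ly6c2 and Ccr2 in their place, 4.04 for class II-low cells and 5.19 for triple-positive cells, the last 2 chosen after seeing the data. The log2 fold of Fabp5 reversed to 0.76 in triple-positive cells. Of 36 named and marker genes past 1.5-fold, 35 kept their direction in triple-positive cells and 36 in each other setting. Past 1.5-fold stayed 30 in triple-positive cells, 34 in class II-low cells and 35 with at least 6 gate UMIs. The 36 include the gate's F13a1, Chil3 and Vcan and the hepatocyte genes Alb, Fgg, Kng1 and Serpina1c. The named genes were picked by their folds over these same cells, so the counts are a description. With free RNA subtracted all 36 stayed past 1.5-fold, Alb included, so that setting cannot tell free RNA from expression. Of the 6 list medians past 1.5-fold, 5 stayed past it with at least 600 genes, doublets removed, Ly6c2 and Ccr2 in the gate, scaling to the median gene ratio, a mean over cells, thinned cells, at least 10 CPM or without the S100a8 and S100a9 cell, 4 with at least 6 gate UMIs, 3 in class II-low cells and none in triple-positive cells; at 100 CPM 4 of the 5 that could be computed did. Scrublet removed 161 (4.93%) gated inhibitor and 12 (4.92%) gated control cells. No paired analysis was possible because each group has 1 library. The 48 triple-positive control cells limit the precision of that set, and free RNA was subtracted as an estimate from barcodes under 300 genes.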
